A study of Mus musculus with 16 samples.

Results

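Trypsinogen genes were followed in bulk RNA-seq of whole mouse pancreas. *Prss1*, *Prss2*, *Prss3*, *Try4*, *Try5*, *Try10*, *1810009J06Rik*, *2210010C04Rik*, *Gm5771* and *Gm10334* were taken from the count tables by symbol. They are 10 of the 24411 genes in the table of raw counts, and all 10 were among the 13660 genes that passed the filter on low counts. Lean WT mice (n = 5) were compared with obese Lep(ob/ob) mice (n = 7) and with treated Lep(ob/ob) mice, which took an inhibitor of CCK receptors (CCKRi, n = 4). All were C57BL6/J males on chow, collected at 12 weeks of age, and WT and untreated Lep(ob/ob) mice drank control water. Untreated Lep(ob/ob) mice are called obese mice in what follows, and those given CCKRi treated mice. The treated mice received proglumide at 0.1 mg/mL (n = 2) or lorglumide at 0.05 mg/mL (n = 2) in their water for the last 6 weeks, and both compounds compete with CCK for its receptors. Lep(ob/ob) mice, treated or not, lack leptin in every tissue, so that lack of leptin and obesity cannot be told apart here. The labels give WT mice as bred in house and Lep(ob/ob) mice as bought, whereas the study's methods give the same vendor for both, so whether source went with genotype is not settled.

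Trypsinogens are inactive precursors of trypsin that acinar cells store in zymogen granules and release when CCK, acetylcholine or secretin reaches the gland. In the gut, enteropeptidase cuts after a run of aspartates and a lysine and so removes a short N-terminal peptide, and the trypsin set free then activates further trypsinogen and the other pancreatic zymogens. Within the pancreas the same step is held back by the inhibitor SPINK1 and by chymotrypsin C, which degrades trypsinogen, and early activation is a hallmark of pancreatitis.

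All 10 genes lie within 560 kb of chromosome 6 (chr6:40964754-41525079, GRCm38) and are annotated by GENCODE as protein-coding genes with 5 exons. The activation site, the hallmark of a trypsinogen, sits in exon 2. It is shown for every gene from the GRCm38 transcripts, 5′ to 3′, with the lysine codon (AAG or AAA) in front of the cut and the 4 codons before it in capitals. In *Gm5771* the capitals mark the codons aligned with those of *Prss1*, which are 1 fewer.
Prss2 (chr6:41522822-41522857, plus strand): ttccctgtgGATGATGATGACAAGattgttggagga
2210010C04Rik (chr6:41034363-41034398, minus strand): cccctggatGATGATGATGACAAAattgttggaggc
Try4 (chr6:41303289-41303324, plus strand): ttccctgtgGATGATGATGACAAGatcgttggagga
Try5 (chr6:41313468-41313503, minus strand): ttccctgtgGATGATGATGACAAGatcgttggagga
Try10 (chr6:41355457-41355492, plus strand): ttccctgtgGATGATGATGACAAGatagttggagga
Prss3 (chr6:41376927-41376962, minus strand): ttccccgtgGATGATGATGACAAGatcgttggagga
Gm5771 (chr6:41394667-41394699, plus strand): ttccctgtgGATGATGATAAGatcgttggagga
Gm10334 (chr6:41445389-41445424, minus strand): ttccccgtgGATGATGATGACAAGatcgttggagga
Prss1 (chr6:41461186-41461221, plus strand): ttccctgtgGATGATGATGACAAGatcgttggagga
1810009J06Rik (chr6:40966168-40966203, plus strand): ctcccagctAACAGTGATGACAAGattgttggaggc
*Prss1*, *Try4* and *Try5* carried the same 36 bases here, and *Prss3* and *Gm10334* shared another version. Counted back from the lysine without a break, there were 2 aspartate codons (GAT or GAC) in *1810009J06Rik*, 3 in *Gm5771*, 5 in *2210010C04Rik* and 4 in each of the other 7 genes.

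Libraries held 9.87 to 34.5 M counts. The labels give 2 batch codes, here A (3 WT and 4 obese mice, 19.2 to 34.5 M counts) and B (2 WT, 3 obese and all 4 treated mice, 9.87 to 15.9 M counts). The 12 acinar markers listed for the check of the tissue, among them *Cpa1* and *Ptf1a*, were detected in every mouse. The 50 most counted genes took 48.6% to 84.4% of a library. Summed normalized counts of 6 adipocyte markers were 681 to 3107 in WT mice, 922 to 18226 in obese mice and 2092 to 11498 in treated mice, highest in obese mouse 463 and treated mouse 69. Summed normalized counts of 8 islet markers were 23040 to 33915 in WT, 165434 to 234387 in the 4 obese mice of batch A, 46758 to 121693 in the 3 of batch B and 27545 to 264141 in treated mice. Between obese and WT mice, 6 of the 8 islet markers rose, 2 of the 12 acinar and 1 of the 6 adipocyte markers fell, and the others did not pass the test. The adipocyte marker that fell was *Cfd* (log2 fold change -3.15), and the other 5 had values of 1.43 to 2.28. *Lep* RNA, which the ob nonsense mutation does not remove, had 17.5 to 64.7 normalized counts in WT, 254 to 8655 in obese and 933 to 8797 in treated mice. In bulk tissue, fewer cells of a type and less RNA per cell cannot be told apart.

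Together the 10 genes were a large part of all counts in the pancreas. Their share was 11.04% ± 1.30 (SD, n = 5) of a WT library, 10.5% ± 1.35 (SD, n = 7) of the library in obese mice and 8.09% ± 1.90 (SD, n = 4) in treated mice. Within batch A the means were 11.6% in WT and 11.4% in obese mice, and within batch B they were 10.1% in WT, 9.31% in obese and 8.09% in treated mice. The 3 groups overlapped, with ranges of 8.76% to 12.0%, 7.84% to 11.5% and 5.97% to 10.4%. Such a share also depends on the other abundant genes of the library. Exact binomial intervals for the share of 1 mouse, which cover counting error only, were at most 0.0381 percentage points wide. The members *Prss2*, *2210010C04Rik*, *Try4* and *Try5* held 98.2% to 99.7% of the family's counts in every mouse. The other 6 made up 0.517% ± 0.218 (SD, n = 5) of the family in WT, 0.894% ± 0.415 (SD, n = 7) in obese and 1.35% ± 0.444 (SD, n = 4) in treated mice. The batches differed here, with means of 0.383% in WT and 1.096% in obese mice of batch A, and of 0.718% in WT and 0.623% in obese mice of batch B, which also holds all treated mice.

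**Figure D1:**
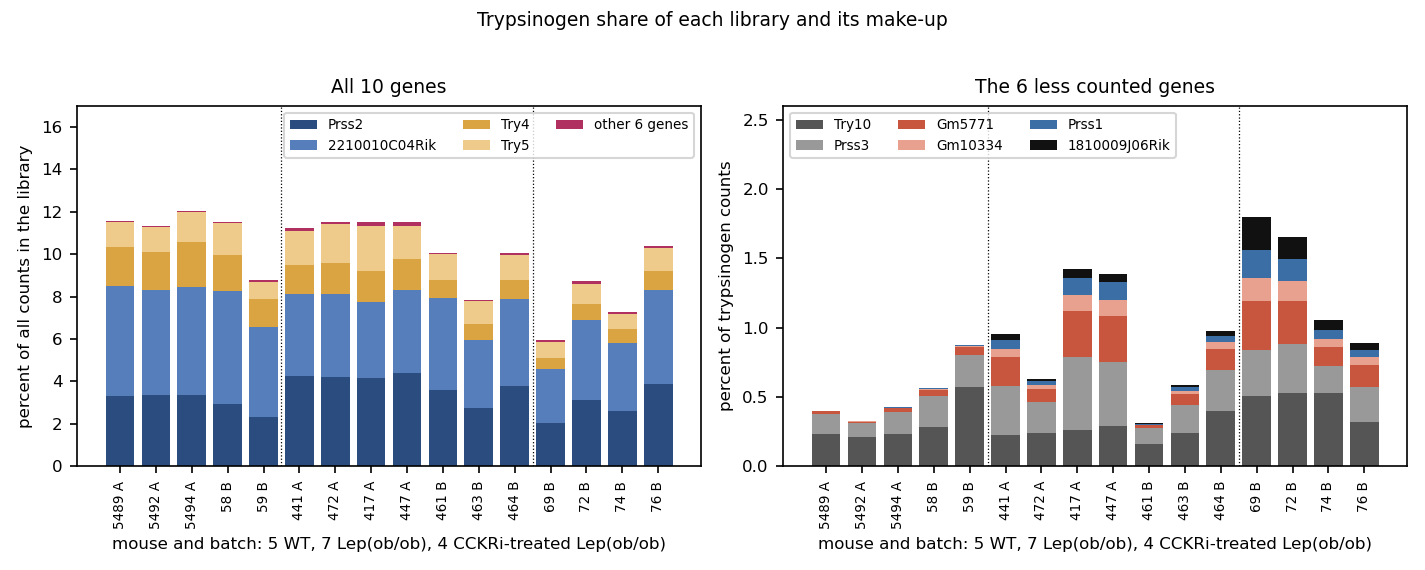
Share of all counts taken by the 10 trypsinogen genes in each mouse (left, percent of the library) and make-up of the 6 less counted genes (right, percent of trypsinogen counts), by mouse and batch, with dotted lines between the groups. The total lies between 5.97% and 12.0% in all mice, while the less counted genes take 0.309% to 1.80% of it.

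Per kb of exon, the levels covered a wide range and their order shifted between groups. In WT mice *Prss2* led with a mean of 918834 normalized counts per kb, ahead of *2210010C04Rik* (558948) and *Try4* (537906), whose order held in 4 of 5 mice, and of *Try5* (331307). The place of *2210010C04Rik* in this order depends on its annotated exons, 2142 bases against 798 to 902 in the other members. By counts not divided by length it led in every WT mouse, with 42.4% to 49.0% of the family against 25.5% to 29.5% for *Prss2*. Far below them came *Try10* (8217 per kb), *Prss3* (5001) and *Gm5771* (920.5), followed by *Gm10334* (103) and *Prss1* (100.3), whose order held in 2 of 5 mice, and *1810009J06Rik* (16.2). *Prss1* was thus among the least counted members in lean pancreas. In obese mice *Try5* (361796 per kb) stood between *2210010C04Rik* (374628) and *Try4* (325014). *Try5* was below *2210010C04Rik* in 5 of 7 mice and above *Try4* in 6 of 7. At the lower end came *Prss3* at 9046, *Try10* at 6656 and *Gm5771* at 5388 per kb, neighbours whose order held in 4 of 7 mice each, then *Prss1* at 1857, *Gm10334* at 1642 and *1810009J06Rik* at 916. *Prss3* was above *Try10* in the 4 obese mice of batch A (means of 13252 and 8345) and below it, as in WT mice, in the 3 of batch B (3439 and 4405), and *Gm5771* had means of 8390 in batch A and 1386 in batch B. In treated mice *Prss2* (424524), *2210010C04Rik* (192182), *Try5* (112679) and *Try4* (105877) again led, and *Prss1* (1208), *1810009J06Rik* (1188) and *Gm10334* (999) were at the bottom with no fixed order among the 4 mice.

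**Figure D2:**
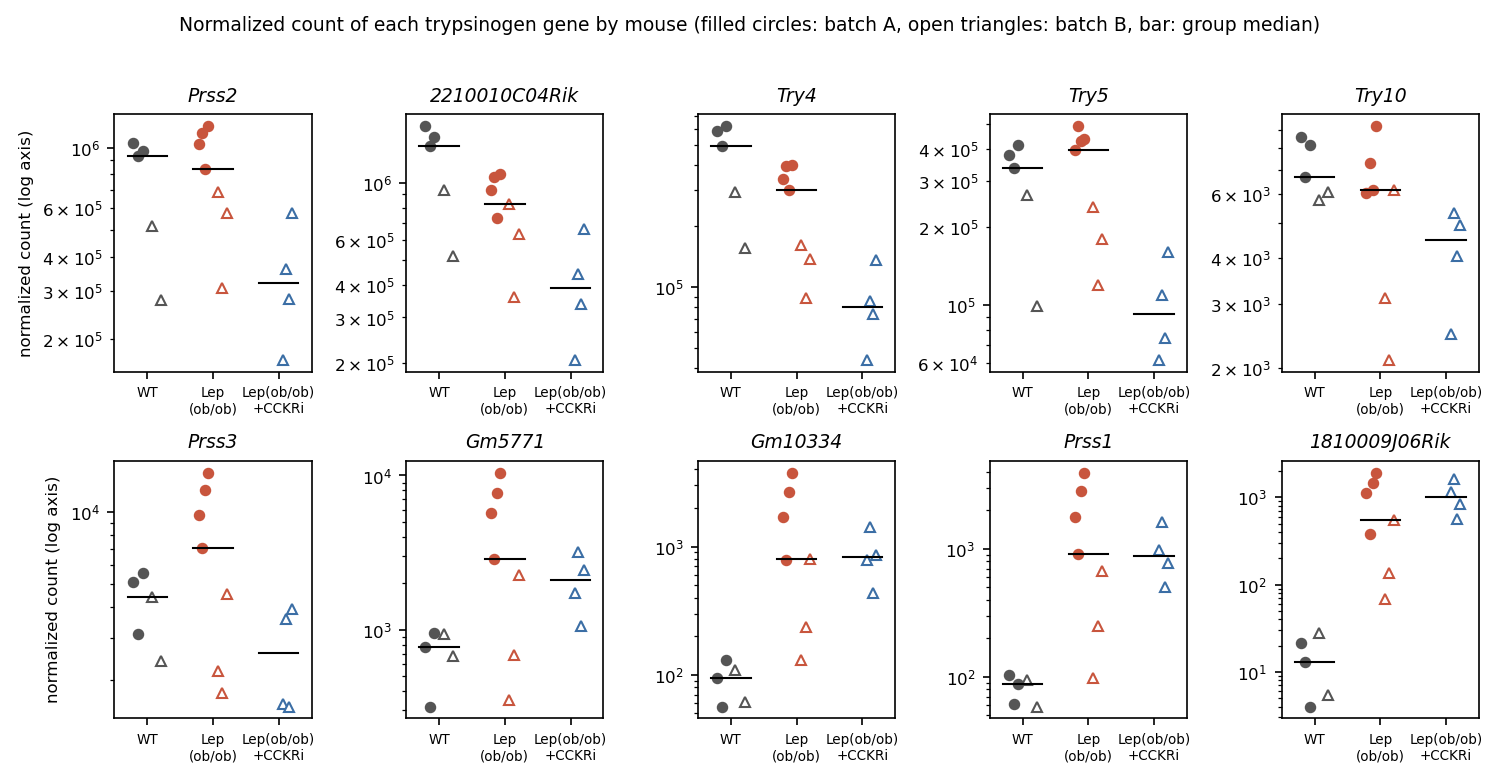
Normalized count of each trypsinogen gene in each mouse on a log axis, with filled circles for batch A, open triangles for batch B and a bar at the group median, for 5 WT, 7 Lep(ob/ob) and 4 CCKRi-treated Lep(ob/ob) mice. For *1810009J06Rik* and *Gm10334* no Lep(ob/ob) value falls among the WT values, whereas for *Prss2* and *Try5* the groups overlap within each batch.

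The first question was which trypsinogen genes differed between obese and lean pancreas. *Prss1*, *Gm10334* and *1810009J06Rik* rose in obese mice by 12.0-fold to 52.2-fold, and no member fell in the edgeR fit. These are 3 of 10 members, all higher, where 9.07% of all genes tested differed, 5.93% were higher and 3.14% lower. *1810009J06Rik*, with 4 to 17 raw counts in WT mice, passed the filter on low counts through the groups where it is high. With at least 10 counts required in every mouse it was not tested. The members called were then *Prss1* and *Gm10334*, in a fit that called 782 of 11216 genes. The median log2 fold change was 0.40 over the 10 members and -0.018 over all genes tested. DESeq2 with batch called 5 members, against 12.4% of all genes, adding *Gm5771* as higher and *Try4* as lower (log2 fold change -0.72, DESeq2 adjusted p = 0.0287). The genes that rose in edgeR were the 3 with the lowest levels in WT mice, and the 4 most counted members had log2 fold changes from -0.73 to 0.21.

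*1810009J06Rik*, an unnamed gene model at the end of the cluster, had the lowest counts of the family in lean pancreas. Its normalized counts were 21.5, 12.9 and 4.00 in WT mice of batch A and 27.6 and 5.41 in those of batch B, from raw counts of 4 to 17. In obese mice they were 1133, 384, 1466 and 1925 in batch A and 67.7, 136 and 546 in batch B. Every obese mouse was thus above every WT mouse, and those of batch A were above 2 of the 3 in batch B. The log2 fold change was 5.71 (standard error 0.76, edgeR adjusted p = 0.000224). Given WT counts this low, the fold of 52.2 is known only loosely, with an approximate 95% interval of 4.22 to 7.20 on the log2 scale. With a mouse left out it ran from 5.25 to 6.44, highest without WT mouse 58.

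*Prss1* had normalized counts of 102, 61.2 and 87.9 in WT mice of batch A and 94.1 and 58.4 in those of batch B. Its values in obese mice were 1772, 919, 2808 and 3948 in batch A and 97.5, 249 and 671 in batch B. All obese mice but 1 exceeded the highest WT mouse, and the exception, mouse 461 of batch B, still exceeded both WT mice of its batch. The log2 fold change was 3.72 (standard error 0.63, edgeR adjusted p = 0.00142), or 13.1-fold.

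*Gm10334*, a gene model that carries the same activation site as *Prss3*, followed *Prss1* closely. WT mice had 94.2, 56.5 and 130 normalized counts in batch A and 109 and 61.6 in batch B. Obese mice had 1700, 785, 2641 and 3774 in batch A and 131, 237 and 803 in batch B. The groups did not overlap, though mouse 461 at 131 stood just above the highest WT mouse at 130. The log2 fold change was 3.59 (standard error 0.62, edgeR adjusted p = 0.00153).

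*Gm5771*, a close copy of *Prss1*, missed the threshold with a log2 fold change of 2.03 (standard error 0.63, edgeR adjusted p = 0.0524). It was called higher, at 2.03 to 3.35, in 7 other settings (no batch term, DESeq2 with or without batch, no filter, batch A alone, an adipocyte score as covariate, and without the 4 mice highest in adipocyte markers), and in 3 of 16 fits that left out a mouse. It had 778, 318 and 957 normalized counts in WT mice of batch A against 5724, 2883, 7729 and 10446 in obese mice of that batch. In batch B the WT mice had 941 and 679 and the obese mice 352, 690 and 2277. The groups were thus far apart in batch A and overlapped in batch B. *Prss3* showed the same split with smaller differences, at 3088 to 5553 in WT and 7062 to 14559 in obese mice of batch A, and at 2385 and 4413 in WT and 1760 to 4540 in obese mice of batch B. Its log2 fold change over both batches was 0.59 (standard error 0.37, edgeR adjusted p = 0.361). *Try10* had 5760 to 8624 normalized counts in WT and 2102 to 9222 in obese mice, with a log2 fold change of -0.35 (standard error 0.25, edgeR adjusted p = 0.418).

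Among the 4 abundant genes, none passed the test. *Prss2*, anionic trypsinogen, had 1.05, 0.930 and 0.976 M normalized counts in WT and 1.04, 1.13, 0.839 and 1.20 M in obese mice of batch A. In batch B its values were 0.516 and 0.278 M in WT and 0.686, 0.306 and 0.576 M in obese mice. The groups overlapped in both batches, and the log2 fold change was 0.21 (standard error 0.33, edgeR adjusted p = 0.75). With the acinar marker score as a covariate, *Prss2* was called higher at 0.69 (standard error 0.15, edgeR adjusted p = 0.00677), where 8.57% of all genes were called. For *2210010C04Rik*, WT mice had 1.66, 1.38 and 1.50 M in batch A and 0.933 and 0.519 M in batch B, while obese mice had 0.936, 1.05, 0.730 and 1.08 M in batch A and 0.829, 0.359 and 0.633 M in batch B. These were all lower than WT in batch A and overlapped with WT in batch B, with a log2 fold change of -0.52 (standard error 0.33, edgeR adjusted p = 0.363). *Try4* was likewise lower in every obese mouse of batch A and overlapped in batch B, at 0.497 to 0.622 M in WT and 0.302 to 0.398 M in obese mice of batch A, and 0.155 and 0.293 M against 0.0886 to 0.162 M in batch B. Its log2 fold change was -0.73 (standard error 0.28, edgeR adjusted p = 0.121). *Try5* had 0.0989 to 0.415 M in WT and 0.120 to 0.490 M in obese mice, with a log2 fold change of 0.10 (standard error 0.30, edgeR adjusted p = 0.876).

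**Figure D3:**
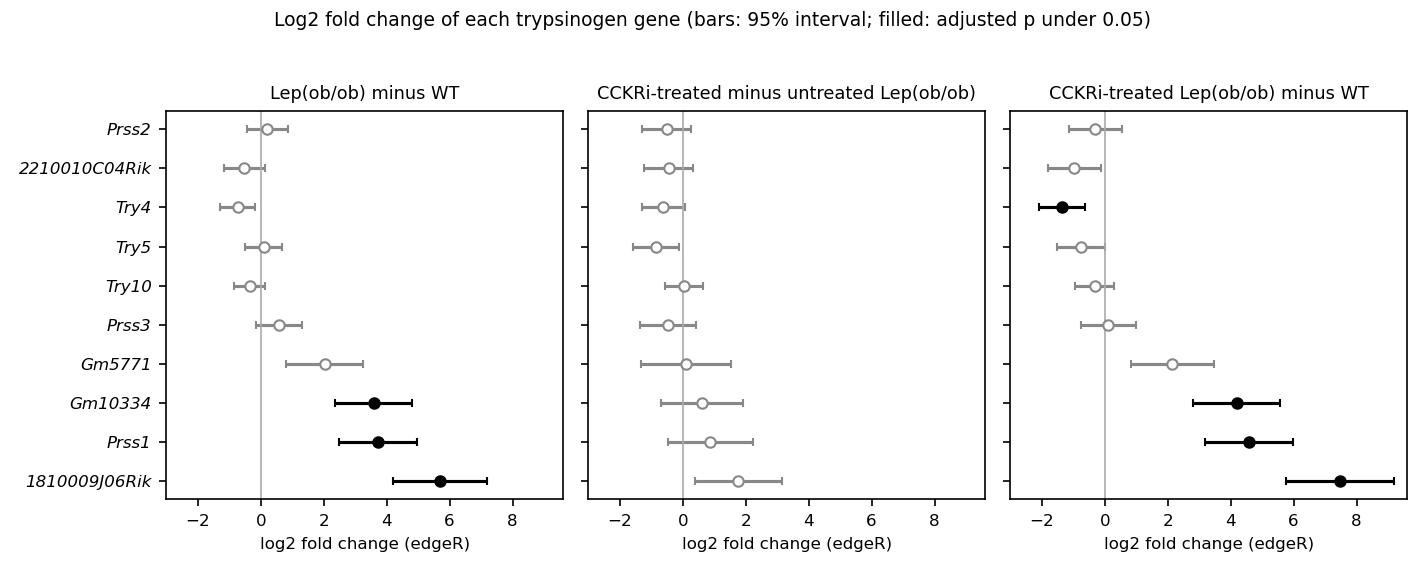
Log2 fold change of each trypsinogen gene in the 3 comparisons, fitted with edgeR over 16 mice with batch as a covariate, with bars for the approximate 95% interval and filled points where the adjusted p was under 0.05. The rise of *Prss1*, *Gm10334* and *1810009J06Rik* against WT appears with and without CCKRi, and no member passes the threshold between treated and untreated Lep(ob/ob) mice.

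Within batch A alone, 7 of 10 members did not overlap between the groups, 5 of them higher in obese mice (*Prss1*, *Prss3*, *1810009J06Rik*, *Gm5771* and *Gm10334*) and 2 lower (*Try4* and *2210010C04Rik*), against 21.1% of all genes (11.2% higher and 9.92% lower). Within batch B, 3 did not overlap (*Prss1*, *1810009J06Rik* and *Gm10334*, all higher), against 33.2% of all genes (17.5% higher). Over all mice, 2 did not overlap (*1810009J06Rik* and *Gm10334*), against 4.18% of all genes (3.06% higher). Each of the 7 in batch A had an exact two-sided permutation p = 0.0571, the smallest that 4 against 3 mice allow, and 3 against 2 mice in batch B cannot go below 0.2. An edgeR fit of batch A alone called the same 7 genes, against 8.68% of all genes (6.75% higher and 1.93% lower). One of batch B alone called 0 of 10, against 0.057% of all genes, with adjusted p = 0.16 for *1810009J06Rik*, 0.228 for *Prss1* and 0.222 for *Gm10334*. In this fit of batch B 3 members had an unadjusted p under 0.05. Such counts, here and below, come without the share of all genes at that level and show no excess.

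The fitted log2 fold changes of these genes were lower in batch B, but the difference between batches did not pass the test. Log2 fold changes in batches A and B were 4.82 and 2.13 for *Prss1*, 4.56 and 2.18 for *Gm10334*, 6.64 and 4.01 for *1810009J06Rik*, 3.29 and 0.41 for *Gm5771*, and 1.25 and -0.31 for *Prss3*. The interaction of genotype and batch was called for 0 of 10 members in edgeR, as for 0% of 13189 genes, with adjusted p from 0.363 to 0.479 for these 5 genes and 4 members at an unadjusted p under 0.05. With obese mouse 464 of batch B left out, 5 members were called (*Prss1*, *Prss3*, *Try10*, *Gm5771* and *Gm10334*), all with a lower log2 fold change in batch B, in a fit that called 9.79% of all genes (7.29% lower in batch B). The obese mice lowest in *Prss1*, 461 and 463, had summed islet markers of 61392 and 46758 normalized counts and adipocyte markers of 6607 and 18226, against 121693 and 2745 in mouse 464, and the part of these cells in the difference was not tested. Without the 4 mice highest in adipocyte markers (417, 461, 463 and treated mouse 69), an alternative added after the data had been seen, 5 members were higher in obese mice and 0 lower, against 7.48% and 4.83% of all genes.

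The second question was whether blocking CCK receptors changed these genes in obese mice. No member passed the test between treated and obese mice, with 0 of 10 called in edgeR against 0.0586% of all genes tested. DESeq2 with batch as a covariate also called 0, against 0.945% of all genes. At an unadjusted p under 0.05 in edgeR there were 2 members. DESeq2 without the batch term, which also sets the treated mice against the obese mice of batch A, called 5 members lower (*Prss2*, *Prss3*, *Try4*, *Try5* and *2210010C04Rik*), where it called 18.4% of all genes and 9.77% as lower. All treated mice were in batch B, so the comparison rests on the 3 untreated mice of that batch and on the batch term. *1810009J06Rik* had 1163 and 1635 normalized counts in the proglumide mice and 561 and 832 in the lorglumide mice, each above the 67.7 to 546 of untreated mice in batch B and within the 384 to 1925 of batch A. It was the 1 member whose groups did not overlap within batch B (exact permutation p = 0.0571, the smallest possible), against 8.71% of all genes (4.65% higher). Its log2 fold change was 1.77 (approximate 95% interval 0.38 to 3.16, edgeR adjusted p = 0.305). It ran from 1.26 to 2.64 with a mouse left out, lowest without obese mouse 461 and highest without obese mouse 464, and was 0.37 in DESeq2 without batch.

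*Prss1* had 982 and 1628 normalized counts under proglumide and 501 and 778 under lorglumide, against 97.5 to 671 in untreated mice of batch B, and the groups overlapped. The log2 fold change was 0.88 (interval -0.46 to 2.22, edgeR adjusted p = 0.543). *Gm10334* had 434 to 1423 in treated mice and a log2 fold change of 0.60 (interval -0.71 to 1.91, edgeR adjusted p = 0.675). Both intervals leave room for a rise of over 3-fold and for a fall. Without the batch term the edgeR log2 fold changes were -0.61 for *Prss1* and -0.70 for *Gm10334*. The 4 abundant genes had negative values, from -0.45 for *2210010C04Rik* and -0.51 for *Prss2* to -0.62 for *Try4* and -0.86 for *Try5* (interval -1.58 to -0.13, edgeR adjusted p = 0.323). Treated mice had 0.167 to 0.579 M normalized counts of *Prss2* and 0.0615 to 0.160 M of *Try5*, lowest in mouse 69. That mouse also had the highest adipocyte markers (11498) and the lowest acinar markers (1.36 M) of its group, whose acinar markers otherwise ran from 2.19 to 4.03 M, against 2.73 to 6.60 M in obese mice of batch B. Log2 fold changes between treated and obese mice were also negative for 9 of 12 acinar markers (median -0.37) and 11 of 12 zymogens (median -0.47). These 2 lists share *Cpa1*, *Cela2a* and *Ctrb1*. The same held for 6 of 6 macrophage markers (median -1.22) and 5 of 5 stellate markers (median -0.96). It also held for 6 of 6 adipocyte markers (median -0.43) and the 4 lymphocyte markers tested (median -0.70). In these lists edgeR called 0, with 3, 2, 6, 4, 0 and 0 genes at an unadjusted p under 0.05. The share of all genes at that level is not given, so these counts have no background. Values were positive for 8 of 8 islet markers (median 0.54) and 5 of 6 duct markers (median 0.25). There too 0 were called in edgeR, with 0 and 3 genes at an unadjusted p under 0.05. Of all 13660 genes tested, 6996 had a negative value. The part of these cells in the values was not tested. Over all mice, 0 of 10 members were apart between treated and obese mice, against 6.06% of all genes.

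Proglumide is a glutaramic acid derivative and lorglumide an analogue of it with longer alkyl chains and a chlorinated benzoyl group. They were given at different doses, so compound and dose cannot be told apart and their values only stand side by side. *Try4*, for example, had 0.0438 and 0.0851 M normalized counts under proglumide and 0.0739 and 0.136 M under lorglumide. The fitted log2 difference of proglumide from lorglumide mice (2 against 2) lay between -0.70 for *Try4* (interval -1.63 to 0.23) and 1.03 for *Prss1* (interval -0.62 to 2.69). edgeR called 0 of 10 members, as 0% of 14381 genes, with 0 members at an unadjusted p under 0.05 and adjusted p from 0.703 to 0.979. Against untreated mice, *1810009J06Rik* had a log2 fold change of 2.19 with proglumide (edgeR adjusted p = 0.547) and 1.18 with lorglumide (adjusted p = 0.44).

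The third comparison, treated mice against WT, shares its mice with the other comparisons and is not independent of them. The same 3 genes were higher and *Try4* was lower, 4 of 10 members against 5.57% of all genes tested (4.22% higher and 1.35% lower). Here too *1810009J06Rik* passed the filter on low counts through the groups where it is high. Log2 fold changes were 7.48 for *1810009J06Rik* (standard error 0.88, edgeR adjusted p = 0.000116), 4.60 for *Prss1* (0.71, adjusted p = 0.000967) and 4.19 for *Gm10334* (0.70, adjusted p = 0.00163). Without WT mouse 58 they were 8.46, 5.22 and 4.81, and without obese mouse 464 that of *1810009J06Rik* was 8.12. Within batch B, 4 treated mice had 501 to 1628 normalized counts of *Prss1* where the 2 WT mice had 58.4 and 94.1. *Try4* had 0.0438 to 0.136 M in treated mice, below the 0.155 and 0.293 M of the WT mice of that batch, with a log2 fold change of -1.35 (standard error 0.37, edgeR adjusted p = 0.0392). This last call was lost in 13 of 16 fits that left out a mouse and in 6 other settings. Its log2 fold change ran from -1.68 to -1.09 with a mouse left out. In 5 of the 6 settings it ran from -1.74 to -1.02, and with the acinar marker score as a covariate it was -0.69 (edgeR adjusted p = 0.0563). For *Gm5771* the log2 fold change was 2.14 (standard error 0.67, edgeR adjusted p = 0.0792), and the other 5 members had values between -0.96 and 0.11. *Gm5771* was called higher with an adipocyte score as covariate (2.53, edgeR adjusted p = 0.00686) and without the 4 mice highest in adipocyte markers (1.80, edgeR adjusted p = 0.0283). DESeq2 without batch called *Try5* (-1.56, DESeq2 adjusted p = 0.00512) and *2210010C04Rik* (-1.54, DESeq2 adjusted p = 0.00109) lower. Within batch B, 6 members did not overlap, against 21.6% of all genes (11.3% higher and 10.3% lower), with *Prss1*, *1810009J06Rik*, *Gm5771* and *Gm10334* higher and *Try4* and *Try10* lower in treated mice. The smallest exact p for 4 against 2 mice is 0.133, and an edgeR fit of batch B alone called 0 of 10, against 0.0926% of all genes. In that fit 4 members had an unadjusted p under 0.05. Over all mice the same 6 were apart, against 11.5% of all genes (6.16% higher and 5.32% lower).

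The mixture of trypsinogens also differed between lean and obese pancreas when 2 members were compared within the same library, where depth and normalization cancel. The pairs described here were picked after their values were seen and carry no test. The ratio of *Prss2* to *2210010C04Rik* counts was 0.535 to 0.674 in WT, 0.828 to 1.15 in obese and 0.814 to 0.873 in treated mice. *Try5* to *Try4* was 0.637 to 0.907 in WT, 1.09 to 1.47 in obese and 1.01 to 1.40 in treated mice. In WT mice *2210010C04Rik* and *Try4* thus outnumbered their partners in every mouse, and in obese mice *Try5* outnumbered *Try4* in every mouse. The ratio of *Prss1* to *Gm10334*, in contrast, stayed near 1, at 0.677 to 1.09 in WT, 0.742 to 1.17 in obese and 0.911 to 1.24 in treated mice. *Prss1* to *Gm5771* went from 0.0860 to 0.193 in WT to 0.277 to 0.378 in obese and 0.318 to 0.563 in treated mice.

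Of the 45 pairs of members, 22 had ratios that did not overlap between WT and obese mice. Of all pairs of genes tested, 5% did so. Most of the 22 pairs joined a gene that rose with one that did not (17 of 21 such pairs). Among the 21 pairs of genes that did not pass the test, 3 were apart, which were *Prss2* with *2210010C04Rik*, *Prss2* with *Try4*, and *Try5* with *Try4*. A ratio shows that 2 genes changed unequally and does not show which of them changed. Between treated mice and obese mice of batch B, 22 of the 45 pairs also did not overlap. The pairs whose ratios are given above overlapped there. The share of all pairs of genes is not known for that comparison, so its count has no background.

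**Figure D4:**
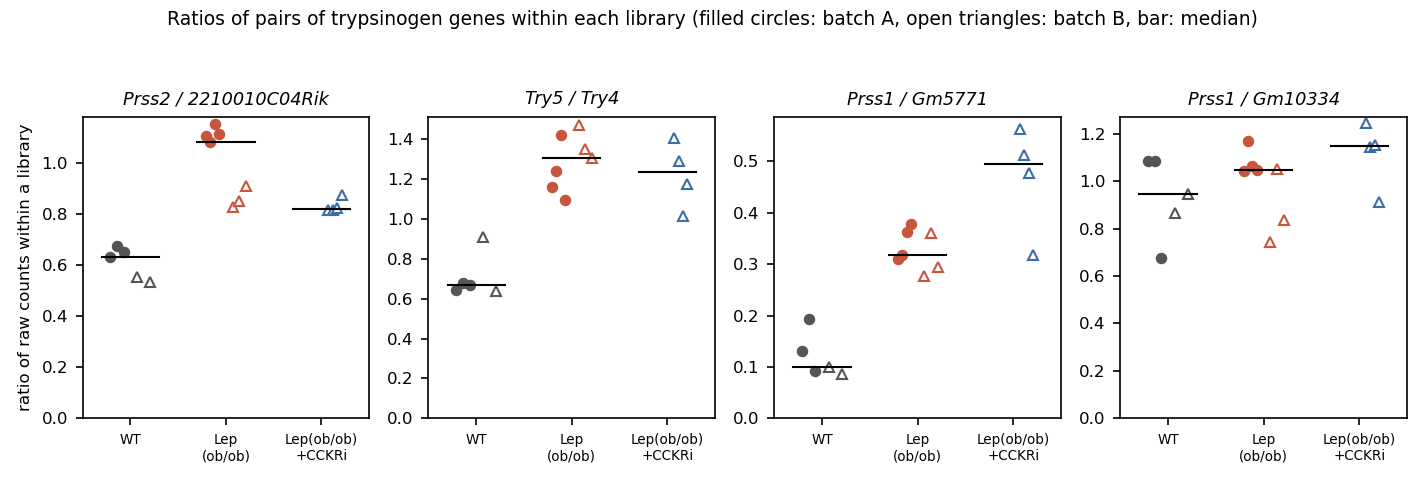
Ratio of raw counts of 2 trypsinogen genes within each library on a linear axis from 0, with filled circles for batch A, open triangles for batch B and a bar at the median, for 5 WT, 7 Lep(ob/ob) and 4 CCKRi-treated mice. *Prss2* to *2210010C04Rik*, *Try5* to *Try4* and *Prss1* to *Gm5771* separate WT from Lep(ob/ob) mice, while *Prss1* to *Gm10334* stays near 1 in all groups.

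Because the genes are close copies, reads can be shared between them, and how the authors treated reads with several matches is not given in the sources used here. Of all 100-base stretches of a transcript, the share found exactly in another annotated gene was 67.6% in *1810009J06Rik*, 45.0% in *Prss3*, 41.8% in *Gm10334*, 30.2% in *Try4*, 25.5% in *Gm5771*, 22.5% in *Try5*, 21.8% in *Prss1* and 11.6% in *Try10*. It was 0% in *Prss2* and *2210010C04Rik*. Counts of the other members are uncertain to the extent that a read was dropped or given to a copy. Transcripts were 98.9% identical between *Prss3* and *Gm10334*, 97.8% between *Prss1* and *Gm5771* and 97.1% between *Try4* and *Try5*. In the first 2 of these pairs 1 gene rose and the other did not pass the test. The count of *Gm10334* was 1.83% to 2.58% of that of *Prss3* in WT mice and 6.02% to 25.9% in obese mice.

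All shared 100-base stretches of *1810009J06Rik* were shared with *Gm2663*, its neighbour in the cluster and no member by the rule, with 99.4% identical transcripts. *Gm2663* had 7.06 to 16.2 normalized counts in WT, 51.5 to 1095 in obese and 263 to 1007 in treated mice, and it rose in obese mice by a log2 fold change of 4.96 (standard error 0.70, edgeR adjusted p = 0.000354). The ratio of *1810009J06Rik* to *Gm2663* was 0.385 to 1.89 in WT, 1.32 to 2.10 in obese and 1.40 to 2.13 in treated mice. Reads of these 2 genes cannot be fully told apart, and their rises are not independent observations.

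**Figure D5:**
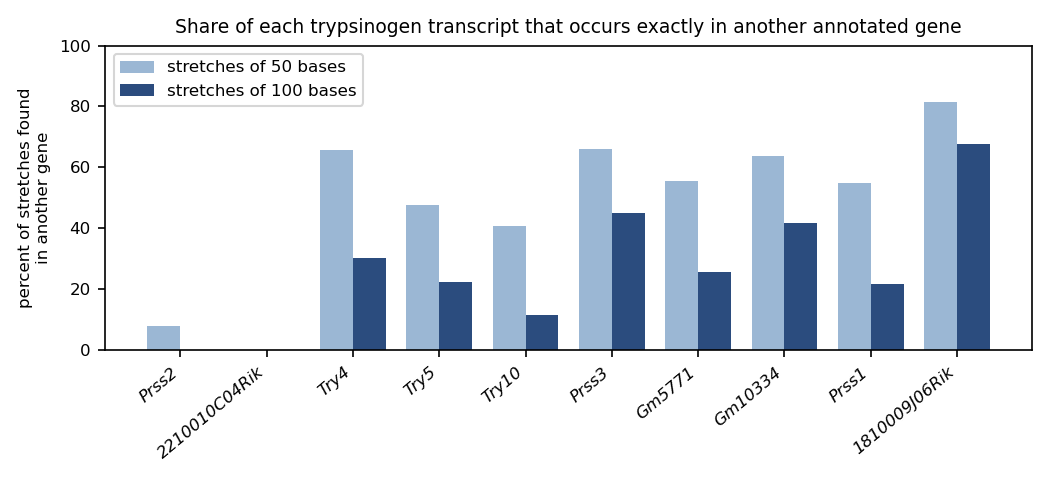
Percent of the 50-base and 100-base stretches of each trypsinogen transcript that occur exactly in another annotated gene (GENCODE, GRCm38). *1810009J06Rik* has the highest share at 100 bases (67.6%), and *Prss2* and *2210010C04Rik* have none at that length.

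Promoters were compared because close copies differed in their change. RefSeq gave the window from 250 bases before to 50 bases after the start for 7 of the 10 members, not for *1810009J06Rik*, *Try5* and *Try10*. A gene that rose and its close copy that did not pass the test are shown for both such pairs (GRCm38.p6, 5′ to 3′ on the gene's strand), with the TATA motif TATAAA in capitals.
Prss1 (chr6:41458680-41458979, plus strand): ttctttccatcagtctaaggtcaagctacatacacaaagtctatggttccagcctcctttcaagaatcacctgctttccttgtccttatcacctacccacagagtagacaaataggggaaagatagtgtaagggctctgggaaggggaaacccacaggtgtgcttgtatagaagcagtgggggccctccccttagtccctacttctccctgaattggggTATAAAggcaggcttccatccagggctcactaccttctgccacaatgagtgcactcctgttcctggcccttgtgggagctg
Gm5771 (chr6:41392106-41392405, plus strand): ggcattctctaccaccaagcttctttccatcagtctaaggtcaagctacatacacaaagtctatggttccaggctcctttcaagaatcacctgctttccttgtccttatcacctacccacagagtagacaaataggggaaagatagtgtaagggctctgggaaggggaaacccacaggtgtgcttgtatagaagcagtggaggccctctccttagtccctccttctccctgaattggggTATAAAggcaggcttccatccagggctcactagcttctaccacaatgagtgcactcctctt
Prss3 (chr6:41377564-41377863, minus strand): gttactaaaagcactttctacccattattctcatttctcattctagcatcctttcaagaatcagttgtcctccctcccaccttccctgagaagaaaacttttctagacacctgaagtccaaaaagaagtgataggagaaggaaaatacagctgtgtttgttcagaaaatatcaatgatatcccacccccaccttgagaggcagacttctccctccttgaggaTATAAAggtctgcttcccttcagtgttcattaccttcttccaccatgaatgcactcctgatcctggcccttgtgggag
Gm10334 (chr6:41446048-41446347, minus strand): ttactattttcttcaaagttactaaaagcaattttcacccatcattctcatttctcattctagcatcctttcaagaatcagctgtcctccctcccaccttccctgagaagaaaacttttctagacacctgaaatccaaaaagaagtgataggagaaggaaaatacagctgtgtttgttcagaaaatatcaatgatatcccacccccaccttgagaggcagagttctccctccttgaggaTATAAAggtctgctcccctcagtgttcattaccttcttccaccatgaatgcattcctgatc
The windows of *Prss1* and *Gm5771* were 97.5% identical over 280 aligned bases, and those of *Prss3* and *Gm10334* were 96.8% identical over 283. The promoters of *Prss1* and *Gm10334*, which rose together, were 70.4% identical. TATAAA occurred on the gene's strand in all 7 windows, where 8.32% of 32817 RefSeq promoters of the same length held it on that strand and 13.6% on either. CACCTG, an E-box of the kind bound by the acinar factor PTF1A, occurred on either strand in all 7 windows and in 20.2% of all promoters. TTTCCCA, the other part of the PTF1 site, occurred in 1 of 7 windows (*Prss2*, opposite strand) and in 8.06% of all promoters on either strand. A match describes letters only and does not show that a factor binds there.

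The other genes of the pathway were taken from lists of zymogens, of factors that control trypsin, and of the secretagogue receptors. Of 12 zymogens and cofactors that trypsin activates, 0 were higher and 3 lower in obese mice, with a list median of -0.31, where 5.93% of all genes were higher and 3.14% lower. The 3 were *Ctrc* (log2 fold change -1.43, edgeR adjusted p = 0.00115), the elastase *Cela3a* (-2.29, adjusted p = 0.00273) and the phospholipase *Pla2g1b* (-1.01, adjusted p = 0.0444). *Ctrc*, chymotrypsin C, had 6291 to 12368 normalized counts in WT, 1614 to 4662 in obese and 3341 to 5155 in treated mice, so that no obese or treated mouse reached the lowest WT mouse. Of 16 genes that control trypsin, 7 were tested and *Ctrc* alone was called. *Spink1*, the trypsin inhibitor of the granule, had 20097 to 40628 normalized counts in WT and 5677 to 24142 in obese mice, with a log2 fold change of -0.94 (standard error 0.30, edgeR adjusted p = 0.0587). The lysosomal protease *Ctsb*, which can activate trypsinogen inside the cell, had a log2 fold change of 0.65 (edgeR adjusted p = 0.31), and *Ctsl*, which degrades it, one of 0.44 (adjusted p = 0.117). Enteropeptidase (*Tmprss15*), an enzyme of the duodenum, had raw counts of 0 to 2.

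On the secretagogue side, 3 of 7 tested genes other than *Cck* were higher in obese mice and 1 lower, against the same 5.93% and 3.14% of all genes. Higher were the muscarinic receptor *Chrm1* (log2 fold change 1.09, edgeR adjusted p = 0.0132), the VIP receptor *Vipr1* (0.86, adjusted p = 0.0189), and the calcium channel *Itpr3* (0.43, adjusted p = 0.0168). *Cck* had 0 counts in every WT mouse and 0 to 22.9 normalized counts in obese mice. It passed the filter on low counts through the other groups, so it is left out of the count and no fold is given. The secretin receptor *Sctr* was lower (-1.39, adjusted p = 0.016). The CCK receptor of mouse acinar cells, *Cckar*, missed the threshold with -0.55 on the log2 scale (standard error 0.25, edgeR adjusted p = 0.182). With *Cck* counted, treated and untreated mice differed in 0 of the 26 tested genes of these 3 lists in edgeR, against 0.0586% of all genes. At an unadjusted p under 0.05 there were 8 in edgeR. *Cck* is counted among these 8, and because of the same filter its place there is not read as a result.

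The genes whose pattern over the 16 mice was most like that of the family were found by the root mean square of the difference of log2 normalized counts, each centred on its mean, over 10855 genes. For the summed members, which themselves varied by 0.864, these were *Cpb1* (0.163), *Gcat* (0.175), *Cela2a* (0.177), *Rnase1* (0.177) and *Gstp1* (0.178). For *2210010C04Rik* the nearest 3 were *Cuzd1* (0.142), *Dusp26* (0.147) and *Edem2* (0.149). For *1810009J06Rik*, whose own variation was 2.88, the nearest was its copy *Gm2663* (0.637), followed at a distance by *Serpina7* (1.22) and *Aldh1a3* (1.40).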

How the data were processed

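Bulk RNA-seq (polyA, strand-specific, paired-end) was measured in 16 pancreata, 1 library per mouse. Per the submitters' processing notes, the authors used Trim Galore 0.6.7 and cutadapt 3.5 for trimming and STAR 2.7.9 with the mm10 genome for alignment. The read counter, its annotation, its strand setting and its handling of reads with several matches are not given in the sources used here. The authors deposited raw counts per gene symbol (24411 genes) and a normalized signal (17548 genes), made from the raw count with 1 scaling constant for each mouse, as checked on the values, and not corrected for batch. Here that signal is called the normalized count, and M stands for 1e6.

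Raw counts were fitted in edgeR 4.0.16 (R 4.3.3, limma 3.58.1) with TMM normalization, the filterByExpr filter and 1 model of 3 groups plus batch, with the quasi-likelihood test and Benjamini-Hochberg adjustment over all genes tested. The threshold was an adjusted p of 0.05. Counts at an unadjusted p under 0.05 come without the share of all genes at that level. They cannot be compared with the shares at the adjusted threshold. The study names DESeq2, with covariates not given in the sources used here, and DESeq2 1.42.0 was an alternative, with and without batch. Approximate 95% intervals of a fold change are normal intervals from its standard error. Exact permutation tests were two-sided, on log2 of the normalized count plus 1 (Python 3.11.15, scipy 1.17.1, numpy 2.4.6, pandas 2.3.3). The edgeR model was tested on simulated data with known changes. For a log2 change of 1 it recovered 61.2% of genes between obese and WT mice. Between treated and obese mice it recovered 56.7%, and between treated and WT mice 44.8%. For a log2 change of 2 these shares were 97.0%, 83.6% and 86.6%. Smaller changes can thus be missed. Sequence work used biopython 1.88, GENCODE on GRCm38 and RefSeq promoters. Figures used matplotlib 3.10.9.

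Members and lists were chosen with earlier results of these data known. Named are all members, plus list genes called or with a known role in trypsin control, and the nearest genes by pattern. The alternatives were no batch term, DESeq2, RLE, abundant or acinar genes left out of the normalization, other filters, only the groups compared, single batches or drugs, marker scores as covariates, and each mouse left out.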

Additional observations from a re-analysis of the deposited data

Results flagged for a closer look

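Of the 30 sets of values formed by 10 members in 3 groups, 0 held a mouse far enough from the others of its group to pass Dixon's 95% critical value, where chance gives about 1 in 20. The largest gap between the outermost mouse and its neighbour was 0.69 of the group's range.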

How the results depend on the processing

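The count of members called between obese and WT mice, 3 of 10, was 5 in DESeq2 with batch (4 higher and *Try4* lower, 1695 of 13656 genes called), 7 in batch A alone (1145 of 13193), 0 in batch B alone (8 of 14045) and 5 without the 4 mice highest in adipocyte markers (chosen after seeing the data, 1680 of 13646), against 1239 of 13660 genes in the fit reported, and 3 to 4 with each mouse left out. *Gm5771* was gained in 7 settings and without WT mouse 58 or obese mouse 461 or 463, and *Prss2* with an acinar score (0.69). Between treated and obese mice, 0 of 10 became 5, all lower, in DESeq2 without batch (*Prss2*, *Prss3*, *Try4*, *Try5* and *2210010C04Rik*), and was 0 to 0 with each mouse left out. Between treated and WT mice, 4 became 0 in batch B alone and 3 to 4 with each mouse left out. In that comparison *Gm5771* was gained with an adipocyte score (1821 of 13660 genes called) and without the 4 mice highest in adipocyte markers (1316 of 13646). *Try5* and *2210010C04Rik* were gained as lower in DESeq2 without batch (2320 of 13660). The interaction with batch gave 0 to 5 (5 without mouse 464) and the difference between drugs 0 to 0 with each mouse left out, where leaving out a treated mouse leaves 1 mouse on that drug, assumed to vary like the other groups, so that these counts say nothing of stability. The ratio of the family's share between obese and WT mice of batch A went from 0.982 to 0.857 with counts outside the 50 most counted genes as denominator. The cause of these changes was not tested. No paired analysis was possible because mouse numbers are not shared between groups. Depth limits *1810009J06Rik* most, with 4 to 17 raw counts in WT mice. It was not tested when at least 10 counts were required in every mouse. That fit called 2 members between obese and WT mice (782 of 11216 genes) and 3 between treated and WT mice (438 of 11216).

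Signs turned only for log2 fold changes that were not called. Obese against WT mice of batch B alone gave -0.29 for *Prss3* and -0.061 for *Try5*, which ran from -0.056 to 0.38 with each mouse left out. For treated against obese mice, no batch covariate gave -0.61 for *Prss1*, -0.44 for *Try10*, -1.02 for *Gm5771* and -0.70 for *Gm10334*. DESeq2 without batch gave -0.62, -0.45, -1.03 and -0.72 for these genes, and leaving out the 4 mice gave -0.11, -0.32, -0.95 and -0.31. *Try10* was -0.013 when normalization skipped the 50 most counted genes, -0.015 with an adipocyte score and -0.084 with proglumide alone, and *Gm5771* was -0.16 with lorglumide alone. With each mouse left out, *Try10* ran from -0.21 to 0.32 and *Gm5771* from -0.43 to 0.36. For treated against WT mice, an acinar score gave 0.49 for *Prss2* and 0.11 for *Try10*, lorglumide alone gave 0.030 for *Prss2*, and *Prss3* was -0.62 without batch in edgeR and DESeq2, -0.32 with only the groups compared, -0.33 in batch B alone and -0.14 to 0.64 with each mouse left out. The difference between drugs then ran from -0.79 to 0.75 for *Prss3*, -0.93 to 0.20 for *Try5*, -0.86 to 0.23 for *Try10* and -0.017 to 1.24 for *Gm5771*. The difference between batches ran from -0.12 to 0.76 for *Prss2*, -0.56 to 0.34 for *Try4* and -0.84 to 0.58 for *Try5*.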
